A study of Mus musculus with 9 samples.

Results

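The phagocyte NADPH oxidase was followed through 5 genes that encode its subunits, *Cybb*, *Cyba*, *Ncf1*, *Ncf4* and *Rac2*. They were found by gene name, and all 5 are among the 55401 genes of the deposited RNA-Seq tables. Expression was measured in 9 libraries of cKit+CD11b dim splenocytes from mice that had been transplanted with H9M leukemia clones. The 3 pre-malignant libraries came from 1 mouse (#15) that was sacrificed early after transplantation, and held clone 33BC-D, clone 38BC-D and clone 43BC-D. The 3 de novo expanded libraries came from the same clones in the endpoint mice #17, #13 and #14, where they had grown out. The 3 stably expanded libraries were all from clone 34BC-D, in mice #13, #14 and #17. Each clone descended from lineage-negative bone marrow cells of C57BL/6-Ly5.1 mice that carried a gammaretroviral vector for Meis1 and Hoxa9 (H9M). All groups were H9M-/-, with a knockout that a lentiviral FGB-D vector complemented, and the same vector carried the color code by which the clones were sorted. Recipients were lethally irradiated C57Bl6/J mice that also received helper bone marrow cells. The pre-malignant controls thus share the H9M vector and the knockout with the other groups. Each clone had the FGB-D vector of its own color code, so the stably expanded clone carried another one than the pre-malignant clones. The stably expanded group is a model of 1 clone only.

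The oxidase is the enzyme with which neutrophils and macrophages turn oxygen into superoxide. Its catalytic core sits in the membrane and consists of gp91phox, encoded by *Cybb*, and p22phox, encoded by *Cyba*, each of which stabilizes the other. In a resting cell p47phox (*Ncf1*) and p40phox (*Ncf4*) wait in the cytosol. Upon stimulation p47phox is phosphorylated, the cytosolic subunits move to the membrane, and the GTPase Rac2 joins them and switches the core on. The genes are turned on as myeloid progenitors mature, and loss of gp91phox, p22phox or p47phox causes chronic granulomatous disease.

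On GRCm38.p6, the build of the tables, *Cybb* (ENSMUSG00000015340.10) spans chrX:9435252-9487771 and *Cyba* (ENSMUSG00000006519.11) spans chr8:122424776-122432930, both on the minus strand. *Ncf1* (ENSMUSG00000015950.13) lies at chr5:134220053-134229625 on the minus strand. *Ncf4* (ENSMUSG00000071715.12, plus strand) and *Rac2* (ENSMUSG00000033220.7, minus strand) are both on chromosome 15, at chr15:78244801-78262580 and chr15:78559167-78572783. All values refer to reads in the exons of the whole gene. The 3' part of *Ncf1* overlaps *Gtf2ird2* on the opposite strand, which had a mean of 348 normalized counts against 5705 for *Ncf1*. The strand setting of the counting is not given in the sources used here, so reads in that overlap may belong to either gene.

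The RefSeq promoter table (GRCm38.p6) held 3 of the 5 genes, and *Ncf4* and *Rac2* were not in it. The 250 bases before the RefSeq start are shown because the core pair *Cybb* and *Cyba* differed in their pattern over the libraries, whereas *Ncf1* resembled *Cyba* more closely. Capitals mark matches to 4 short motifs, searched on both strands: the PU.1-type core GAGGAA, the interferon response element, written as GAAA, any 2 bases and GAAA again, the CCAAT box and the GC box GGGCGG. Each sequence is written 5' to 3' on the strand of its gene, *Cybb* from chrX:9469325-9469574, *Cyba* from chr8:122432941-122433190 and *Ncf1* from chr5:134229626-134229875.
Cybb: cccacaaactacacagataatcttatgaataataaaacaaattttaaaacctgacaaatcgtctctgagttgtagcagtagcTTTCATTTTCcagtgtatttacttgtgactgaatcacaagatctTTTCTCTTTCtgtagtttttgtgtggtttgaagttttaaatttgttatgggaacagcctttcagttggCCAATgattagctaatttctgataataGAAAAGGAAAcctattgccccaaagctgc
Cyba: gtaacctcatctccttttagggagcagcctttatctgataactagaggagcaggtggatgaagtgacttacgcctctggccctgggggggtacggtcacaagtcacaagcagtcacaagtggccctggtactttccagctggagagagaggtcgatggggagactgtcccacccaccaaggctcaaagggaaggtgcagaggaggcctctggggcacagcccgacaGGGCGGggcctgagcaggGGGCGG
Ncf1: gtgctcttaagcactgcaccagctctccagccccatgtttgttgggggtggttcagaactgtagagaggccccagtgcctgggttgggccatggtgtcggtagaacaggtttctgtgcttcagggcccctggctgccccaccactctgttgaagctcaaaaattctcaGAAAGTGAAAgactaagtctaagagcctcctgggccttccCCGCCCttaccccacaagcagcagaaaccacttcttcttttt
The *Cybb* window lies inside the longer gene span of the tables, since the annotated RefSeq start is further downstream. It held a CCAAT box beginning at base -56 from the start, and the interferon response element at 3 places. This element began at -168 and -124 on the opposite strand and at -29 on the strand of the gene. The *Ncf1* window held this element once, beginning at -82, and a GC box on the opposite strand beginning at -42. *Cyba* held 2 GC boxes, beginning at -24 and -6, and no interferon response element. Among all 32851 promoter windows of this length, 2.98% held the interferon response element, 33.8% CCAAT, 32.7% GGGCGG and 23.3% GAGGAA, and the last of these was found in none of the 3 windows. Such matches describe the letters only.

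The libraries held between 10379739 and 15551196 reads on genes, with a median of 14606389. Expression is given as the normalized count, the number of reads divided by a size factor for the library, here with all 9 libraries scaled together. The lowest count behind a value was 566 reads for *Cybb*, whose counting error is 4.20%, and it was between 1302 and 3577 reads for the other 4 subunits. No subunit was therefore limited by depth, and spread between libraries was larger than counting error for all of them except *Rac2* in the pre-malignant group. Transcripts of both gate markers were present in every library, with *Kit* from 1937 to 3979 and *Itgam* (CD11b) from 379 to 1188 normalized counts. *Ptprc* (CD45) ranged from 4238 to 5216. No library from outside the gate was available for comparison. Libraries are numbered 1 to 3 within a group, and no label links a number to a clone or a mouse.

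All 5 subunits were expressed in every library. To compare genes with each other, normalized counts were divided by the exonic length in kb. On this scale *Cyba* had a mean of 1890.4 and *Rac2* of 1855 normalized counts per kb, which placed them 200th and 205th of 13960 genes. *Ncf1* followed with 1558 and *Ncf4* with 1139. *Cybb* was far lower at 231 normalized counts per kb, 2751st in the same ranking, and so the partner of the p22phox transcript was the scarcest of the subunits. The order from *Ncf1* to *Ncf4* to *Cybb* was the same in all 9 libraries, while *Rac2* was first in 5 and *Cyba* in 4 of them. This order depends on the exonic length used for each gene, which need not be the length of the transcript expressed here. *Rac1*, the widely expressed relative of *Rac2*, had 529.5 normalized counts per kb. Other oxidases of the family were close to absent. *Noxo1*, an organizer subunit related to p47phox, reached 60.9 normalized counts in 1 library, *Nox1*, *Nox4*, *Duox1* and *Duox2* stayed at or below 12.0045 in every library, and *Nox3* had 0 reads in all of them.

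*Cybb*, the catalytic subunit, was the most variable. It measured 924, 1407 and 1813 normalized counts in the pre-malignant libraries 1 to 3, with a mean of 1381 ± 445 (SD, n = 3). The de novo expanded libraries held 879.8, 1080.1 and 566, with a mean of 842 ± 259 (SD, n = 3), and the stably expanded libraries held 2638, 2015 and 760.2, with a mean of 1804 ± 956 (SD, n = 3). All 3 groups overlapped. De novo expanded library 2 lay above pre-malignant library 1, and the third stably expanded library lay below every pre-malignant library. Within that one clone, the highest *Cybb* level was 3.47 times the lowest.

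*Cyba*, the membrane partner, moved in another way. It had 1368, 1425 and 1688 normalized counts in the pre-malignant libraries (1493 ± 171, SD, n = 3) and 1833, 1719.9 and 2389 in the de novo expanded ones (1981 ± 358, SD, n = 3). In the stably expanded libraries it had 2889, 2302 and 2064 (2418 ± 425, SD, n = 3). Every leukemic library thus lay above every pre-malignant library, whereas the ranges of both leukemic groups overlapped. Among genes with a mean of at least 10, 10.6% lay above without overlap in the de novo expanded and 16.1% in the stably expanded group. The share for both groups at once was not determined.

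*Ncf1*, the organizer that carries the activating phosphorylation sites, measured 4609, 4266 and 4362 normalized counts in pre-malignant libraries, a mean of 4412 ± 177 (SD, n = 3). It measured 4076, 4451 and 6830.15 in de novo expanded libraries (5119 ± 1494, SD, n = 3) and 8995, 7076 and 6682 in stably expanded libraries (7584 ± 1238, SD, n = 3). The first 2 de novo expanded libraries remained near the pre-malignant level, and the third lay among the stably expanded ones.

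*Ncf4* encodes p40phox, which binds a phosphoinositide of the phagosome membrane. Its normalized counts were 1904, 2103 and 1793 in the pre-malignant group (1933 ± 157, SD, n = 3), 1788, 2001 and 2527 in the de novo expanded group (2105 ± 380.5, SD, n = 3) and 3618, 2506 and 2460.4 in the stably expanded group (2862 ± 656, SD, n = 3). The third de novo expanded library was again the highest of its group, and it lay between the stably expanded libraries.

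*Rac2*, the hematopoietic Rac GTPase, was the steadiest gene before expansion, with 4704, 4675 and 4781 normalized counts in the 3 pre-malignant clones (4719.9 ± 55.3, SD, n = 3). It had 4049, 4135 and 7617 in the de novo expanded libraries (5267 ± 2035, SD, n = 3), of which the first and second lay below all pre-malignant libraries and the third far above them. The stably expanded libraries held 8912, 6533 and 6391 (7279 ± 1416, SD, n = 3). The coefficient of variation was 1.17% in the pre-malignant group and 38.6% in the de novo expanded group, where the third library stood apart.

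**Figure D1:**
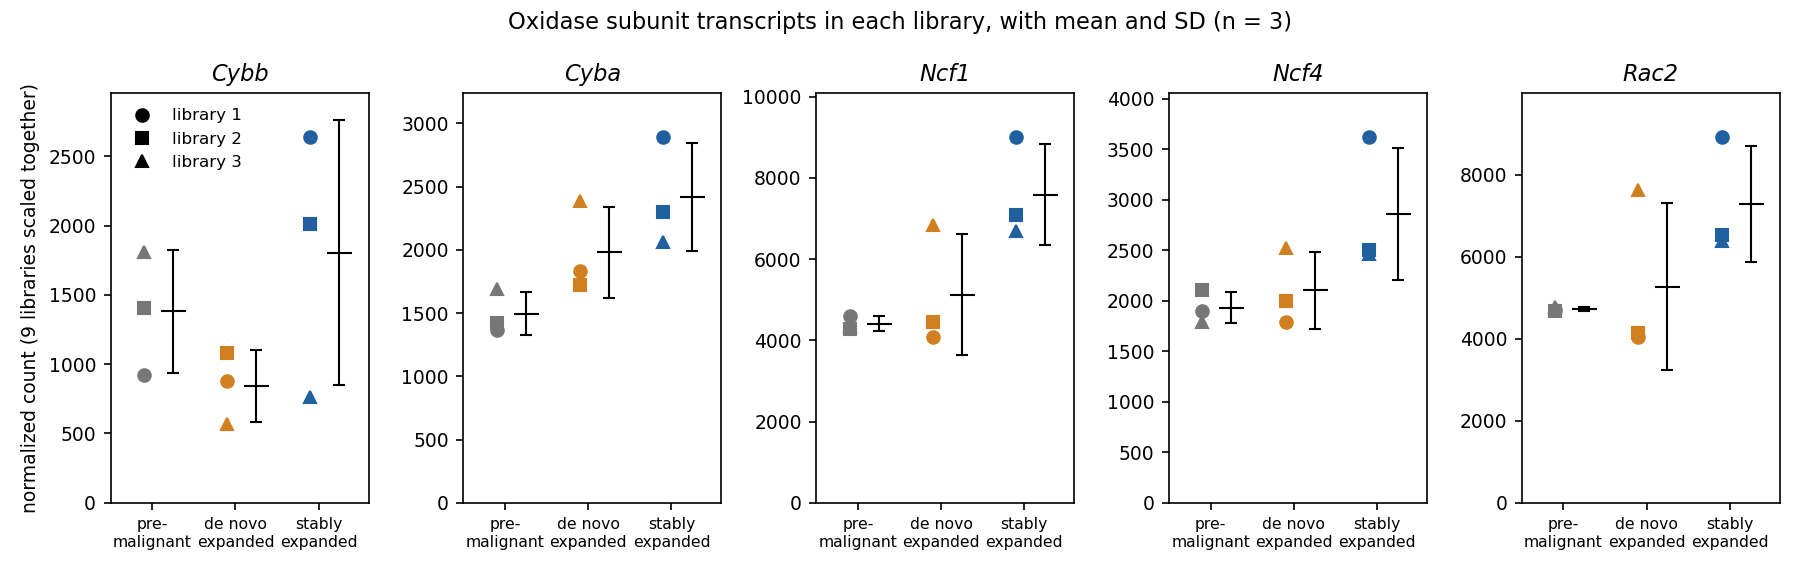
Normalized counts (y axis, 9 libraries scaled together) of the 5 oxidase subunits in the 3 libraries of each group (x axis), with 1 symbol per library number and the group mean with its SD (n = 3) beside them. *Cyba*, *Ncf1*, *Ncf4* and *Rac2* were higher in all 3 stably expanded than in all 3 pre-malignant libraries, while *Cybb* ranged from 760.2 to 2638 within the stably expanded clone.

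The plot of counts by library shows that the first stably expanded library had the highest level of all 5 subunits, and that the third de novo expanded library combined high *Ncf1*, *Ncf4*, *Rac2* and *Cyba* with the lowest *Cybb* of all 9 libraries. Since these are bulk samples, fewer cells of a type and less RNA per cell cannot be told apart.

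First, the de novo expanded clones were compared with the pre-malignant state of the same clones. Fold changes are on the log2(normalized count + 1) scale of the 6 libraries of a table, and were tested with limma, two-sided, with Benjamini-Hochberg adjustment over all genes that had a mean of at least 10. A gene counted as called when the adjusted p was under 0.05 and the change at least 2-fold. None of the 5 subunits was called, beside 0% of the 14195 genes tested. edgeR and DESeq2 also called 0 subunits, and 1 subunit had an unadjusted limma p under 0.05, as did 11.3% of all genes. That gene was *Cyba*, with a log2 fold change of 0.42 (SE 0.15, adjusted p = 0.415), and all its de novo expanded libraries lay above the pre-malignant ones, as for 10.6% of all genes. *Cybb* was lower by a log2 fold change of -0.69 (SE 0.30, adjusted p = 0.449). The log2 fold changes of *Ncf1* (0.20, SE 0.19), *Ncf4* (0.13, SE 0.14) and *Rac2* (0.11, SE 0.23) were within about their own standard error, with adjusted p between 0.724 and 0.886. Without the third de novo expanded library these 3 turned to -0.03, -0.01 and -0.19, again not past the threshold.

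The stably expanded clone was then compared with the pre-malignant clones. Here *Ncf1*, *Cyba*, *Rac2* and *Ncf4* rose, each by less than 2-fold. *Ncf1* had a log2 fold change of 0.77 (SE 0.11, adjusted p = 0.00536), which corresponds to 1.71-fold. *Cyba* followed with 0.69 (SE 0.13, adjusted p = 0.0137), *Rac2* with 0.61 (SE 0.12, adjusted p = 0.0158) and *Ncf4* with 0.55 (SE 0.14, adjusted p = 0.0421). For these 4 genes all stably expanded libraries were above all pre-malignant libraries, a pattern seen in this direction in 16.1% of all genes tested. *Cybb* had a log2 fold change of 0.26 (SE 0.38, adjusted p = 0.715). With the 2-fold limit 0 of the 5 subunits were called, beside 2.75% of 13968 genes, and edgeR and DESeq2 called 0 as well. Without that limit 4 of 5 passed the adjusted p, all of them higher, beside 4.34% of all genes that passed and were higher, and the same number passed with edgeR and with DESeq2. The median log2 fold change of the 5 subunits was 0.61, and that of all genes was 0.0042.

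The pre-malignant libraries all came from 1 mouse and the stably expanded ones from 1 clone, so clone, mouse and stage cannot be told apart, and the p-values measure only the spread between these libraries. The adjusted p of *Ncf1* stayed under 0.05 when any 1 library was left out, but *Cyba* (0.053 and 0.0666) and *Rac2* (0.0519 and 0.0711) missed it without pre-malignant library 1 or 2, *Ncf4* missed it without any 1 pre-malignant library (0.0908 to 0.116) or without stably expanded library 1 (0.09), and all 4 missed it when limma was fitted to all 9 libraries at once (0.0892 to 0.192). *Cybb* rested on single libraries. Its log2 fold change was 0.79 (limma adjusted p = 0.0722) without stably expanded library 3, -0.10 without stably expanded library 1 and -0.0015 without pre-malignant library 1.

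Finally, the stably expanded clone was compared with the de novo expanded clones at the endpoint. The log2 fold changes were 0.97 (SE 0.46) for *Cybb*, 0.59 (SE 0.21) for *Ncf1*, 0.51 (SE 0.26) for *Rac2*, 0.43 (SE 0.19) for *Ncf4* and 0.29 (SE 0.17) for *Cyba*. None of the 5 was called, beside 0.00727% of 13758 genes, and every limma adjusted p was 0.891. With edgeR and DESeq2 0 subunits were called too, and only *Ncf1* had an unadjusted limma p under 0.05 (0.0252), as did 4.83% of all genes. The groups overlapped for all 5, while 9.61% of all genes showed no overlap. The outcome for *Ncf1* and *Rac2* depended on the third de novo expanded library, and without it their log2 fold changes were 0.82 (limma adjusted p = 0.00987) and 0.81 (limma adjusted p = 0.0134). Leaving that library out also raised the genes called over all genes from 1 to 508, with 0 of the 5 subunits among them. These 508 genes passed both the adjusted p and the 2-fold limit, whereas *Ncf1* and *Rac2* passed the adjusted p only. The share of all genes past the adjusted p alone was not determined in that fit. Passing the adjusted p without that library was thus not particular to these subunits. This comparison shares its libraries with the other 2 comparisons.

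**Figure D2:**
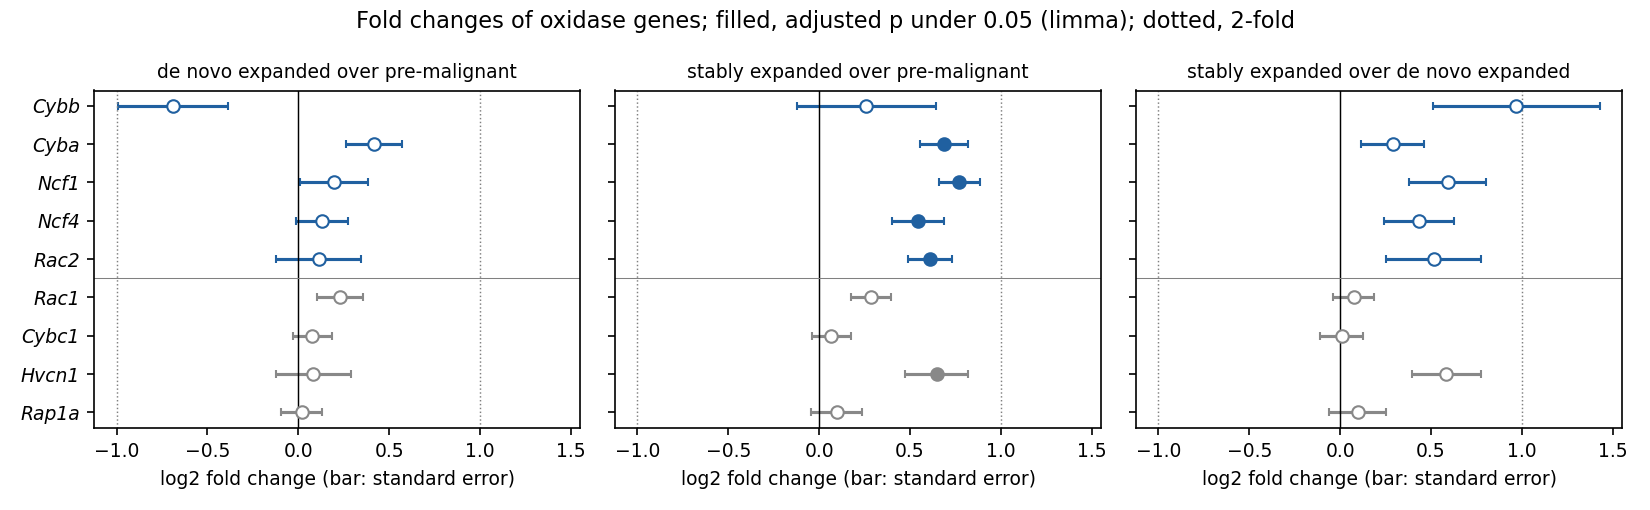
Log2 fold change (x axis, bars are the standard error) of the 5 subunits (blue) and 4 other components of the oxidase (gray) in each of the 3 comparisons, with filled symbols for a limma adjusted p under 0.05 and dotted lines at 2-fold. Filled symbols appear only for stably expanded over pre-malignant, for *Cyba*, *Ncf1*, *Ncf4*, *Rac2* and *Hvcn1*, and none lies beyond a dotted line.

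Other components of the enzyme, drawn in gray in the plot of fold changes, are the GTPases *Rac1* and *Rap1a*, the chaperone *Cybc1*, which is needed for gp91phox and p22phox protein, and the voltage-gated proton channel *Hvcn1*, which balances the charge that the oxidase moves. Of these 4 genes, 1 rose and 0 fell in stably expanded over pre-malignant libraries. That gene was *Hvcn1*, at 485, 586 and 753 pre-malignant and 1146, 871 and 823 stably expanded normalized counts, with a log2 fold change of 0.65 (SE 0.17, limma adjusted p = 0.0463). *Rac1* had log2 fold changes over the pre-malignant group of 0.23 in the de novo expanded and 0.29 in the stably expanded clones (limma adjusted p = 0.52 and 0.136). The adjusted p of 0 of the 4 genes passed in either comparison with the de novo expanded clones.

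Ratios within a library do not depend on its scaling, and 2 were formed from normalized counts per kb. The size of a ratio depends on the gene lengths used, but its comparison between libraries does not. The ratio of the core pair *Cybb* to *Cyba* was 0.121, 0.177 and 0.192 in pre-malignant, 0.0859, 0.112 and 0.0424 in de novo expanded and 0.163, 0.157 and 0.0659 in stably expanded libraries. The de novo expanded libraries lay below all pre-malignant libraries, with a log2 difference of -1.11 between the geometric means. *Rac2* exceeded *Rac1* everywhere, by 3.39, 3.53 and 2.85 times in pre-malignant, 2.20, 2.44 and 4.98 times in de novo expanded and 4.73, 3.58 and 3.94 times in stably expanded libraries. For each ratio whose groups did not overlap the exact permutation test (two-sided) gave p = 0.1, the smallest p that 3 against 3 libraries allow, and 0.3 after Benjamini-Hochberg adjustment over 6 tests. These comparisons could therefore not pass 0.05.

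**Figure D3:**
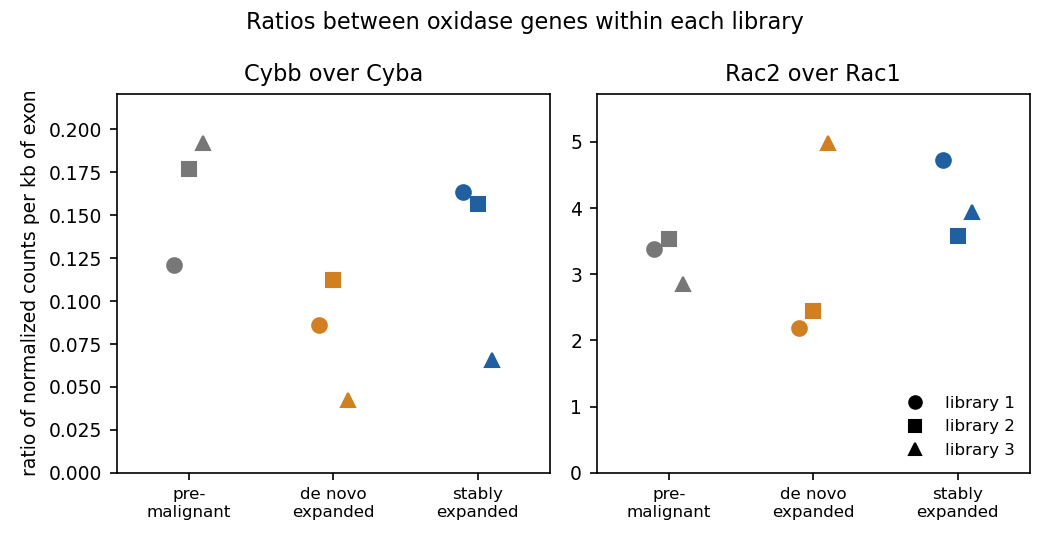
Ratios of normalized counts per kb of exon (y axes, starting at 0) between 2 pairs of oxidase genes in the 3 libraries of each group (x axis), with 1 symbol per library number. In the third de novo expanded library *Cybb* over *Cyba* was lowest, 0.0424, and *Rac2* over *Rac1* was highest, 4.98.

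As seen in the plot of ratios, the third de novo expanded library had the lowest *Cybb* to *Cyba* ratio and the highest *Rac2* to *Rac1* ratio of all 9 libraries.

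To see which genes were most like each subunit over the 9 libraries, log2(normalized count + 1) was centered on the mean of each gene, and the root mean square difference to every gene with a mean of at least 100 was taken (9159 genes). *Rac2* was closest to *Arhgdib*, which encodes a GDP-dissociation inhibitor of blood cells, at 0.0437, followed by *Pgd* (0.0590) and *Atp6v1a* (0.0620), where its own root mean square was 0.383. *Ncf1* was closest to *Atp6ap2* (0.0926), *Atp6v1a* (0.0930) and *Rac2* (0.0984), against its own 0.395. *Cyba* was closest to *Impa1* (0.0877), *Tuba4a* (0.0913) and *Tmsb4x* (0.0959), and *Ncf4* to *Cdc25a* (0.0872), *Rnf145* (0.0896) and *Lpcat1* (0.109). No gene was as close to *Cybb*, for which *Cpne2* (0.356), *Tgm1* (0.358) and *Lyz2*, the myeloid lysozyme (0.382), were the nearest, with 0.685 for *Cybb* itself. These distances are a description of 9 libraries in 3 groups.

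Superoxide production consumes NADPH, most of which comes from the pentose phosphate pathway. Of 10 genes for NADPH supply 9 were tested, and 4 rose and 0 fell in stably expanded over pre-malignant libraries, with a median log2 fold change of 0.43 over the list. Among all genes 4.34% passed and were higher and 3.61% passed and were lower. They were *Rpia* (0.68, SE 0.13, limma adjusted p = 0.0135), *Pgd*, which encodes the second NADPH-producing dehydrogenase of the pathway (0.61, SE 0.12, limma adjusted p = 0.0146), *G6pdx*, which encodes the first (0.46, SE 0.12, limma adjusted p = 0.0413), and *Taldo1* (0.43, SE 0.12, limma adjusted p = 0.0468). *Pgd* went from 3648, 4009 and 4226 normalized counts in pre-malignant to 7219, 5713 and 5279 in stably expanded libraries. It stood at 3431, 3422 and 6064 in the de novo expanded libraries, so that only the third one lay within the stably expanded range. *Tkt*, with the highest normalized count of this list before division by length, had a log2 fold change of 0.66 with a limma adjusted p of 0.0602. Downstream, 10 of 13 genes for superoxide and peroxide metabolism were tested and 0 passed the adjusted p, among them *Mpo*, which makes hypochlorous acid from hydrogen peroxide (log2 fold change 0.31, limma adjusted p = 0.152).

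Signaling genes that lead to the oxidase were mixed. Of 27 genes, 24 were tested, and 5 rose and 2 fell in stably expanded over pre-malignant libraries, with a median log2 fold change of 0.10. The kinase gene *Prkcb*, whose product phosphorylates p47phox, rose by 1.18 (SE 0.20, limma adjusted p = 0.00877), from 1292, 1022 and 830.2 to 3206, 1892 and 2086 normalized counts. *Itgb2*, the β chain of the integrin by which phagocytes adhere, rose by 0.90 (SE 0.14, limma adjusted p = 0.00679). Its α chain *Itgam*, the CD11b of the sort gate, rose by 0.61 (SE 0.17, limma adjusted p = 0.0485), and *Arhgdib* (0.60, limma adjusted p = 0.0165) and the Fc receptor gene *Fcgr3* (0.41, limma adjusted p = 0.0385) rose as well. The β-glucan receptor gene *Clec7a* fell by 1.35 (SE 0.25, limma adjusted p = 0.0123) and *Pik3cd* fell by 0.52 (SE 0.09, limma adjusted p = 0.00877). *Dock2*, an exchange factor for Rac with the highest normalized count of the list before division by length, had a log2 fold change of -0.19 (limma adjusted p = 0.175). *C5ar1*, with the highest fold change of the list (2.49, limma adjusted p = 0.085), stayed at or under 55.2 normalized counts.

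Among 10 transcription factors of phagocyte genes, 2 rose and 3 fell in the same comparison. *Cebpe*, required for late granulocyte maturation, rose by 1.66 (SE 0.21, limma adjusted p = 0.00346), and *Gfi1*, a repressor that favors the granulocyte over the monocyte fate, rose by 0.85 (SE 0.15, limma adjusted p = 0.0102). *Irf8*, which directs monocyte development and is known as an activator of *CYBB*, fell by 1.35 (SE 0.25, limma adjusted p = 0.0126). *Irf8* held 4263, 5989 and 7606 normalized counts in pre-malignant, 5343, 5850.2 and 873 in de novo expanded and 1690.3, 3469 and 2002 in stably expanded libraries. It was lowest in the third de novo expanded library, where *Cybb* was lowest as well. The second-lowest *Irf8* value belonged to stably expanded library 1, which had the highest *Cybb*. A link between *Irf8* and *Cybb* was not tested. *Irf1* fell by 0.68 (limma adjusted p = 0.00837) and *Runx1* by 0.70 (limma adjusted p = 0.00583), and *Spi1*, which encodes PU.1, had a log2 fold change of 0.20 (limma adjusted p = 0.285).

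Genes of granulocyte maturation were listed by stage. Of 5 genes listed for the primary granule stage 3 rose on the log2 scale in stably expanded over pre-malignant libraries, *Ms4a3*, which encodes a membrane protein and not granule content, by 1.26 (limma adjusted p = 0.00346), and the granule proteases *Elane* by 0.78 (limma adjusted p = 0.00783) and *Ctsg* by 0.76 (limma adjusted p = 0.0268). Of 7 genes listed for the secondary granule stage 5 rose, *Ltf* by 4.58, *Camp* by 3.98, *Ngp* by 3.14, *Lcn2* by 2.54 and *Ltb4r1* by 1.397, with limma adjusted p between 0.00357 and 0.0154. *Ltb4r1* encodes a leukotriene receptor of the cell surface, and the other 4 encode granule proteins. The remaining listed genes did not pass the adjusted p. *Cd177* was higher, with means of 432 pre-malignant and 1433 stably expanded normalized counts. *Mmp8* was lower, with means of 17.5 and 9.6. Of 4 late neutrophil genes tested 1 rose, *Cxcr2* by 1.64 (limma adjusted p = 0.0325), while *S100a9* had 2.44 (limma adjusted p = 0.0647). The summed normalized count of the secondary granule list was 2301 to 3056 in pre-malignant libraries, 2196, 2698.01 and 7779 in de novo expanded libraries from the lowest to the highest, and 7755 to 53642 in stably expanded libraries. That of the primary granule list was 111586 to 128710, 41085.6 to 281236 and 146638 to 182089, respectively. The third de novo expanded library was the highest of its group in both lists, and the other 2 lay below the pre-malignant range of the primary granule list. The part of maturation in the levels of the oxidase genes was not tested.

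**Figure D4:**
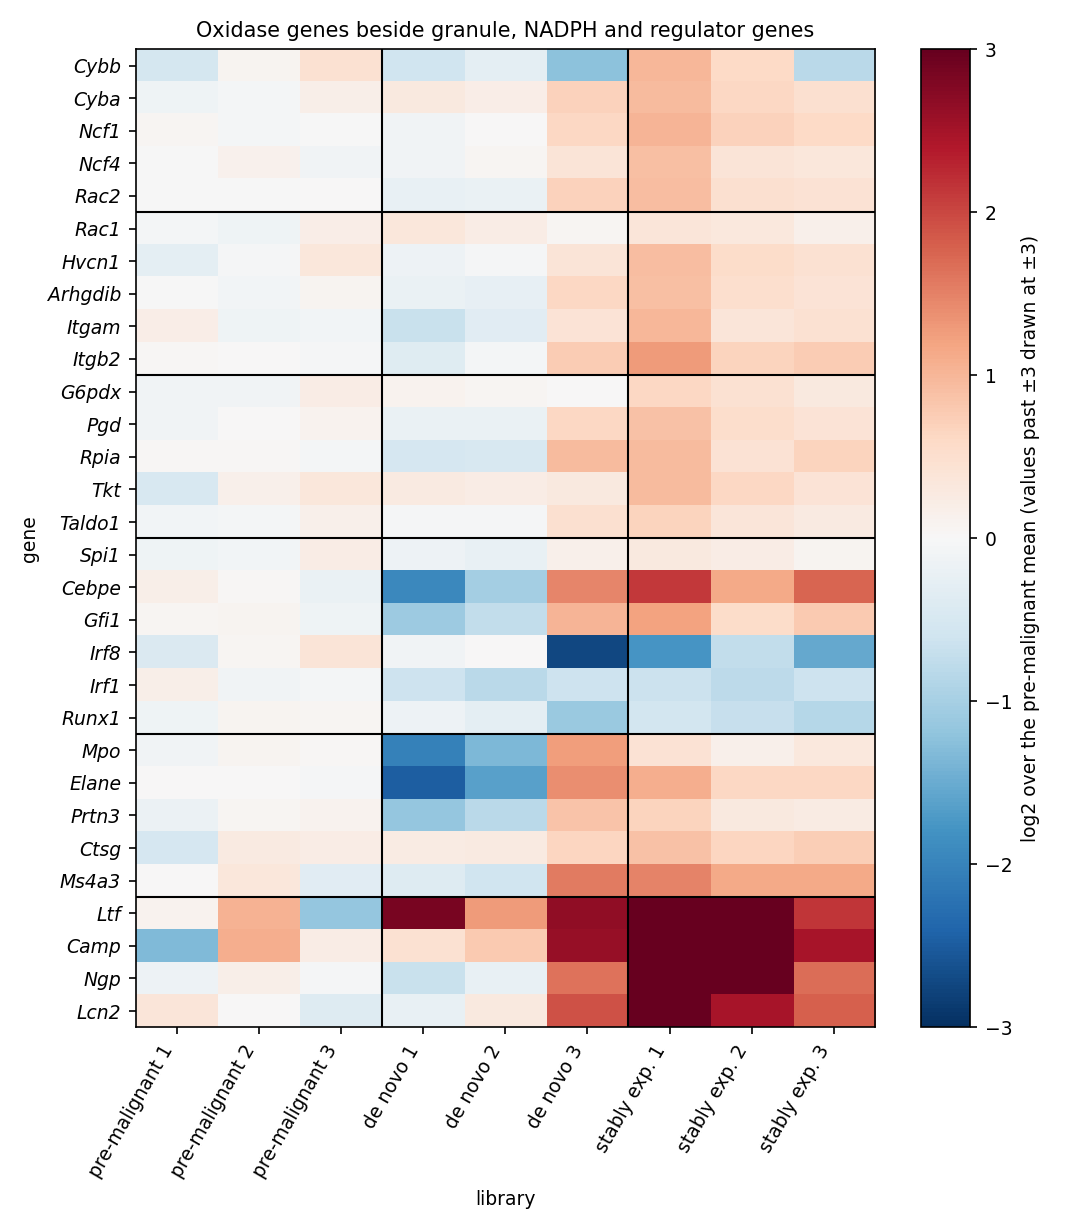
Color gives the log2 ratio of each gene (y axis) in each library (x axis) to its mean in the pre-malignant group, with values past 3 in either direction drawn at 3. The third de novo expanded library lies above the pre-malignant mean for *Ncf1*, *Rac2*, *Pgd*, *Elane* and *Cebpe*, as the stably expanded libraries do, but has the lowest *Cybb* and *Irf8* of all libraries.

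**Figure D5:**
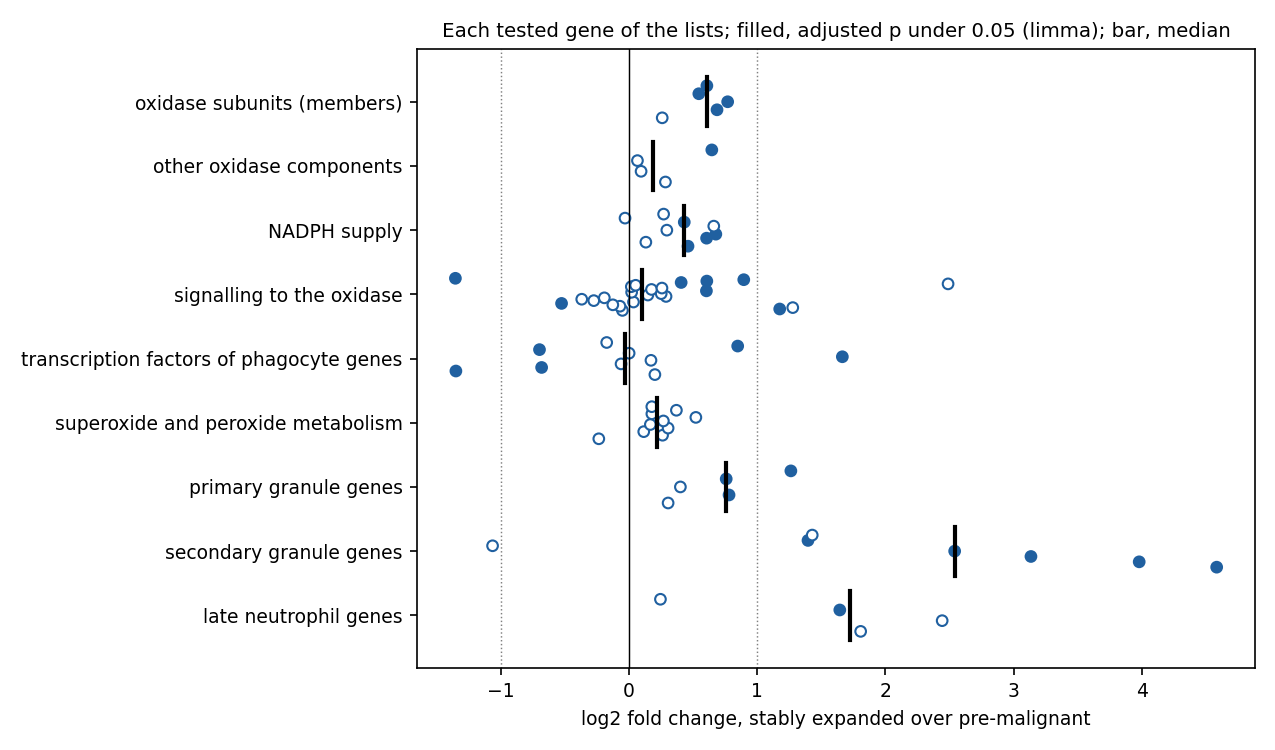
Log2 fold change (x axis) of each tested gene of 9 gene lists (y axis) in stably expanded over pre-malignant libraries, with filled symbols for a limma adjusted p under 0.05, bars at the list medians and dotted lines at 2-fold. The subunits lie within 2-fold, with a median of 0.61, and the secondary granule genes range from -1.06 to 4.58.

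The color plot and the plot of gene lists place the subunits next to the other groups, with changes smaller than those of the secondary granule genes. Other blood cells were traced by their markers. Of 9 monocyte and macrophage markers tested 0 rose and 1 fell, *Csf1r*, by 1.71 (limma adjusted p = 0.00412), and the sum of the 11 listed markers was 18514 to 23694 in pre-malignant, 17435 to 25239 in de novo expanded and 17256 to 21662 in stably expanded libraries. *F13a1* had the highest normalized count of them before division by length (log2 fold change -0.34, limma adjusted p = 0.397), and *Vcam1* ranged from 16.0 to 2303 normalized counts. Of 8 B cell markers 5 fell, with log2 fold changes of -3.53 for *Igkc*, -3.04 for *Pax5*, -2.89 for *Ebf1*, -2.29 for *Ms4a1* and -1.48 for *Ighm*, and limma adjusted p between 0.000589 and 0.0284. *Cd79b* went the other way, with means of 98.7 pre-malignant and 193.8 stably expanded normalized counts, and did not pass the adjusted p. The sum of the 8 markers was 3069.6 to 3733 in pre-malignant, 1047 to 3074 in de novo expanded and 1193 to 1497 in stably expanded libraries. Reads of *Ighm* made up most of it. Sums of the T cell markers stayed at or under 51.2 and those of the platelet markers at or under 41.6 normalized counts. Those of the erythroid markers were 257 to 487 in pre-malignant, 31.6 to 201 in de novo expanded and 32.2 to 325 in stably expanded libraries. From the T cell, erythroid and platelet lists 0 genes passed the adjusted p, and the platelet genes *Ppbp* and *Gp1bb* were at 0 in every library. The part of other cells in the differences between the groups was not tested. In both comparisons with the de novo expanded clones 0 genes of any of these lists passed the limma adjusted p.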

How the data were processed

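Splenocytes were sorted by color code and analysed by RNA-Seq (SMARTer Stranded Total RNA-Seq Pico kit) in 9 libraries of 3 groups. Per the labels, the authors used bcl2fastq, Trim Galore 0.6.4, STAR 2.6.1d and featureCounts 1.6.4 on GRCm38.p6, followed by DESeq2. They deposited 3 tables, 1 per comparison, each with the signal of 6 libraries, that is read counts divided by DESeq2 size factors. The deposited log2 fold changes and their standard errors, the Wald score, the p-values and the base mean are the authors' own comparisons and were not used, and gene lengths were used as deposited. The step between low values of a library gave back its reads, with 99.99% or more of the values above 0 whole within a tolerance of 0.05, and tables that share a library held identical reads.

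Genes with a mean of at least 10 in a table were tested by limma 3.58.1 (trend) on log2(normalized count + 1) in R 4.3.3, which was first tested on simulated data. edgeR 4.0.16 (quasi-likelihood, TMM) and DESeq2 1.42.0 on the recovered reads, pseudocounts of 0.1 and 5, other filters and scalings, 1 fit of all 9 libraries and leaving out each library were alternatives. Levels shown per library come from the recovered reads scaled together. The subunits and gene lists were chosen with earlier results of these data known. From each list the called genes, the one with the highest normalized count and the one with the largest fold change were named, together with *Rac1* and the 3 genes nearest to each subunit, and further genes were named after their values were seen. Some genes of the lists and of the enzyme are not reported here. Counting errors cover sampling of reads only.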

Additional observations from a re-analysis of the deposited data

How the results depend on the processing

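Of 225 values of the subunits under alternatives, 205 kept their direction and their side of the threshold, 13 lost the limma threshold, 2 passed it and 5 changed sign. Those that changed sign were, for de novo expanded over pre-malignant libraries without de novo expanded library 3, *Ncf1* (-0.0341), *Ncf4* (-0.0125) and *Rac2* (-0.1898), and, for stably expanded over pre-malignant libraries, *Cybb* without pre-malignant library 1 (-0.0015) or stably expanded library 1 (-0.102). Over all fits that left out 1 library, these log2 fold changes ranged from -0.0341 to 0.3446, from -0.0125 to 0.2434, from -0.1898 to 0.2723 and, for *Cybb*, from -0.102 to 0.794. The cause was not tested. Quantile normalization took the adjusted p of *Ncf4* in that comparison to 0.0589, and leaving out the 2-fold limit raised the subunits called from 0 to 4. Of the 4 subunits past the adjusted p, 0 remained in 1 fit of all 9 libraries and 1 to 4 without 1 library, with 1 each without pre-malignant library 1 or 2. This count was added after the data were seen. In stably expanded over de novo expanded libraries it was 0 to 2, with 2 without de novo expanded library 3. The share of all genes past the adjusted p alone was not determined for these alternative fits, so these counts have no background.

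Counts over all genes moved more. For de novo expanded over pre-malignant libraries 0 genes were called, against 5 without a filter on low values, 64 with DESeq2, 5 in 1 fit of all 9 libraries and 0 to 214 without 1 library (214 without de novo expanded library 3). For stably expanded over pre-malignant libraries 384 were called, against 6 in 1 fit of all 9 libraries, 1110 without the fold limit and 206 to 452 without 1 library (240, 206 and 219 without pre-malignant libraries 1, 2 and 3, and 208 without stably expanded library 1). For stably expanded over de novo expanded libraries 1 was called, against 2 without a filter, 32 with DESeq2, 2 in 1 fit of all 9 libraries and 0 to 508 without 1 library (508 without de novo expanded library 3, 2 without de novo expanded library 1 and 0 without any stably expanded library).

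No paired analysis was possible because the columns of the tables carry a group but no clone or mouse, so libraries of the same clone could not be matched.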
